A study of Mus musculus with 8 samples.

Results

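The miR-34 and miR-449 assays of the card comprised every assay whose name starts with miR-34a, miR-34b, miR-34c or miR-449, which gave 5 of the 381 assays listed: miR-34a, miR-34b-3p, miR-34c, miR-449a and miR-449b. A threshold cycle (Ct), the PCR cycle at which the signal of an assay crosses a threshold, was determined on 8 of 8 cards for miR-34a and for miR-34b-3p, on 3 for miR-449a, on 1 for miR-34c and on 0 for miR-449b. A lower Ct means more template, and 1 cycle corresponds to about 1 unit on a log2 scale. The cards measured total RNA from whole liver of female C57B6 mice, 4 weeks of age when treatment began, that received carbon tetrachloride (CCl4) in corn oil by intraperitoneal injection for 1, 4 or 8 weeks, or no treatment. CCl4 is a hepatotoxin used to model liver fibrosis. Each of the 4 groups had 2 cards, and whether they came from separate mice is not stated in the labels, so the p-values below measure the spread between cards, which may be technical. In the study's text, numbers for the treated groups are given with its single-assay measurements of miR-29 and not with the cards. Those numbers differ from 2 except at 8 weeks. The labels give the dose as 1 mg/kg and the Methods as 1 ml/kg, and the untreated mice are not said to have received corn oil.

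MicroRNAs guide the silencing of messenger RNAs through their seed, bases 2 to 8 of the mature strand, so that strands with the same seed share many targets. The genes of miR-34a and of the miR-34b/miR-34c cluster are transcriptional targets of the tumour suppressor p53, and the mature miRNAs repress cell cycle and survival genes. The miR-449 cluster carries the same seed, is induced by E2F1 and is known for high expression in multiciliated cells. In liver, miR-34a has been studied in hepatocyte stress, steatosis and fibrosis. Expression of p53 itself was not measured on the cards, so "p53-linked" is background and was not checked in these data.

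Mature sequences were matched for 3 of the 5 assays in the RefSeq annotation of mouse GRCm38.p6, with assay names that give no arm read as the 5p arm. That annotation held no entry matched to the miR-34c and miR-449b assays, so the seed counts below leave both out. Of the 1679 mature names in that table, 4 have the seed of miR-34a. They are shown to make clear which assays read the same seed, with the seed in capitals, and the card holds assays for the first and the second:
miR-34a-5p: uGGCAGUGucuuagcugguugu
miR-449a-5p: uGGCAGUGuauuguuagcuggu
miR-34b-5p: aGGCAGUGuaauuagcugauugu
miR-449c-5p: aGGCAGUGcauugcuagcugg

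The strands miR-34a-5p and miR-449a-5p have their first 9 bases in common and are identical at 15 of 22 positions. The miR-34a strand lies at chr4:150068473-150068494 (+ strand), and the miR-449a strand at chr13:113037549-113037570 (+ strand), within the interval of the gene Cdc20b. The assay for miR-34b-3p reads the other arm of its hairpin, which is shown beside its neighbour because its seed is a different one:
miR-34b-3p: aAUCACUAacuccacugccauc
miR-34c-3p: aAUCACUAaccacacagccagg

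Of the 1679 names, these 2 have this second seed. The miR-34b-3p strand lies at chr9:51103574-51103595 (- strand), and the hairpins of Mir34b and Mir34c are 451 bases apart within the intervals of the genes Btg4 and Hoatz. Of the 3 assays matched, miR-34a and miR-449a thus read a shared seed and miR-34b-3p another one. The seeds of the miR-34c and miR-449b assays could not be compared without a matched entry, so either assay may read the shared seed too. An assay of 1 arm says nothing of the other arm.

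**Figure D1:**
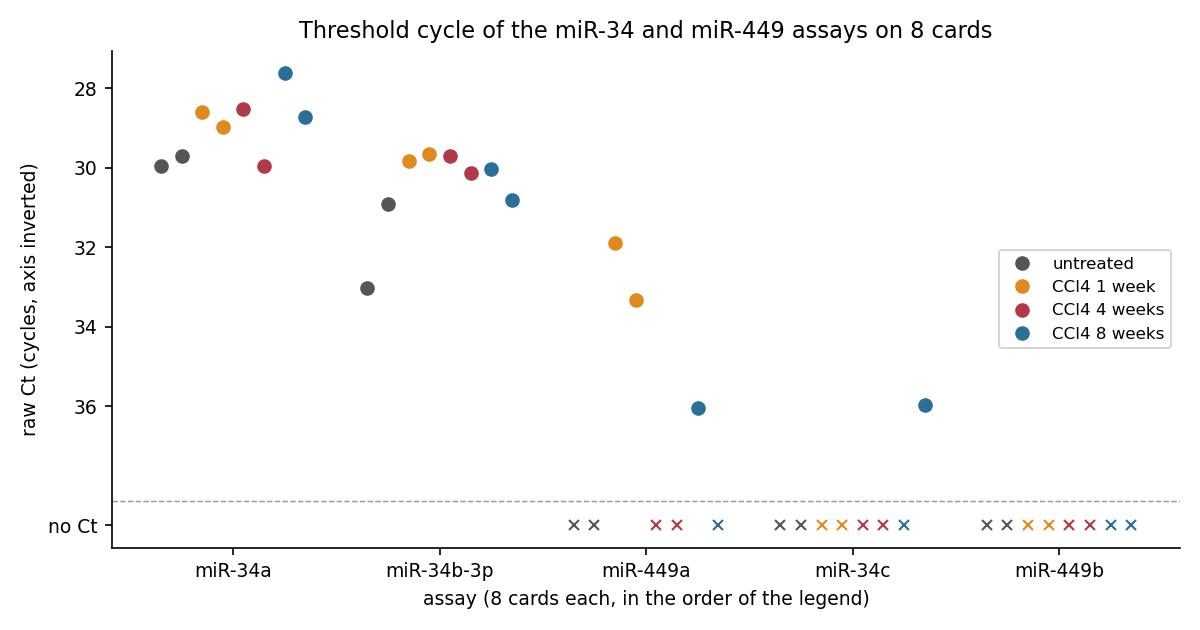
Raw Ct in cycles (vertical axis, inverted so that more template is higher) of the 5 assays on the 8 cards; crosses on the line "no Ct" mark cards with no determined value. miR-34a and miR-34b-3p have a Ct on all 8 cards, miR-449a on both 1-week cards and 1 card at 8 weeks, and miR-34c on 1 card at 8 weeks.

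The cards themselves differed in overall signal. A Ct was determined for 193 to 235 assays a card, and the mean Ct of the 149 assays that stayed below Ct 35 throughout ranged from 27.5 to 29.8, the latter on 4-week card 2. Each Ct was therefore subtracted from that card mean to give a centred value on a log2 scale, on which 0 is the card mean and higher means more template. limma was run over all 8 cards for the 166 assays that had a Ct on each of them and averaged below Ct 35, and 2 of the 5 assays, miR-34a and miR-34b-3p, were among them. Their mean Ct values were 29.0 and 30.5, and the replicate SD of the centred values was 0.22 for miR-34a and 0.76 for miR-34b-3p, against a median of 0.39 over the tested assays. The hepatocyte markers miR-122, miR-192, miR-194 and miR-802 had a Ct on every card, with a mean Ct of 22.8 for miR-122.

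In direction, miR-34a was higher in the liver of CCl4-treated mice at every time, while whether it passed the test depended on the settings given below. The exception in direction was scaling of the cards to U6 alone at 1 week. The raw Ct of miR-34a was 29.97 and 29.7 without treatment, 28.6 and 28.97 after 1 week, 28.52 and 29.96 after 4 weeks, and 27.63 and 28.74 after 8 weeks. After centring, the untreated cards were at -1.62 and -1.71 on the log2 scale, the 1-week cards at 0.17 and -0.37, the 4-week cards at -0.27 and -0.19, and the 8-week cards at -0.15 and 0.14. All 6 cards from treated mice lay above both untreated cards, the 1-week cards spanned the range of the 4-week cards and overlapped the 8-week cards, and both 8-week cards lay above both 4-week cards. Of these 8 raw Ct values, 3 (29.97, 28.97 and 29.96) have decimals between 0.90 and 0.99, a range that is over-represented in the deposited table. In bulk liver RNA, a change in the number of cells that hold a miRNA and a change in its amount per cell cannot be told apart.

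Relative to the untreated mean, the level of miR-34a on a linear scale was 3.00 ± 0.783 (SD, n = 2 cards) after 1 week, 2.71 ± 0.107 after 4 weeks and 3.18 ± 0.443 after 8 weeks, with 1 ± 0.0410 in untreated liver. The log2 fold change was 1.56 at 1 week (standard error 0.30, 95% confidence interval 0.86 to 2.26, limma adjusted p = 0.0080, by Benjamini-Hochberg over 166 assays). It was 1.44 at 4 weeks (0.74 to 2.14, limma adjusted p = 0.0110) and 1.66 at 8 weeks (0.96 to 2.36, limma adjusted p = 0.0231). Over all tested assays, 18.1% were called higher at 1 week, 13.3% at 4 weeks and 2.41% at 8 weeks. The size of the change was thus alike at the 3 times while the share of assays called fell, and miR-34a ranked 28, 22 and 8 of 166 from the highest fold change. It was 1 of 4 assays (2.41%) called higher at all 3 times, each of which was compared with the same 2 untreated cards.

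**Figure D2:**
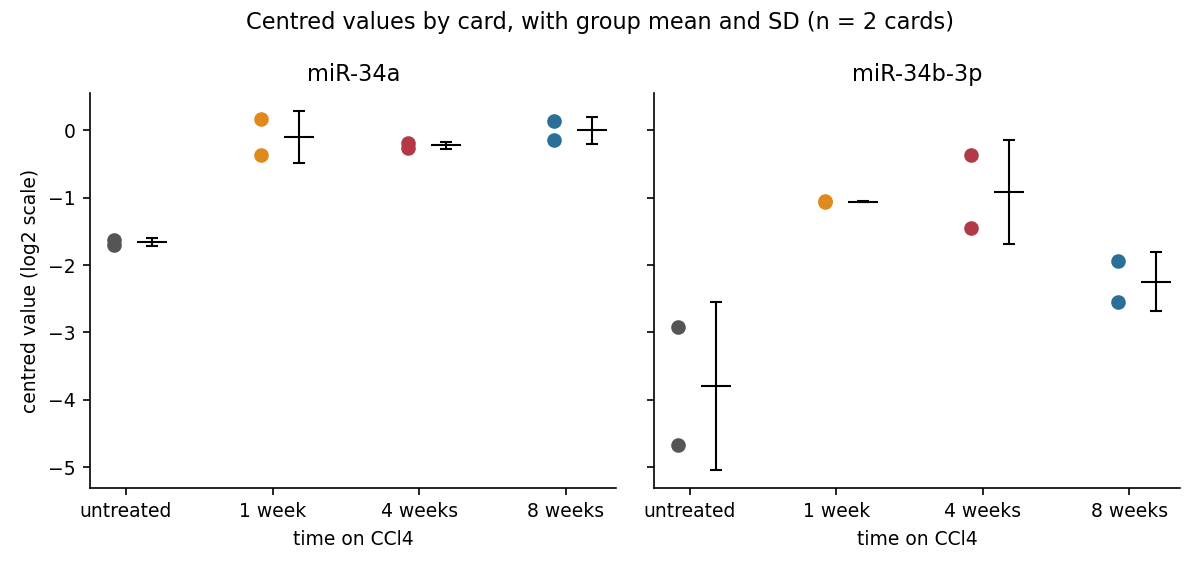
Centred values (vertical axis, log2 scale) of miR-34a and miR-34b-3p by time on CCl4; points are cards, and the bars beside them give the group mean and SD of 2 cards. The untreated cards of miR-34a sit at -1.62 and -1.71 and all its treated cards between -0.37 and 0.17, while the untreated cards of miR-34b-3p are 1.76 apart.

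The call for miR-34a depended on the centring more than its direction did. When the assays determined on a card were all taken for its mean, the log2 fold changes were 1.20, 1.16 and 1.59 at 1, 4 and 8 weeks, and none of the 3 was called (limma adjusted p = 0.0789, 0.105 and 0.129). With the geometric mean of all determined assays, a normalization that the Methods name for the cards, they were 1.22, 1.23 and 1.63 (limma adjusted p = 0.0678, 0.0752 and 0.0936). Over the 9 other centrings, 35 of 36 values for the 3 times and for any CCl4 were above 0. The exception was scaling to the small nuclear RNA U6 alone at 1 week, which gave -0.815 (limma adjusted p = 0.229); U6 itself had a log2 fold change of 2.38 at 1 week and -1.50 at 4 weeks with the centring on 149 assays. At 8 weeks, the call was lost in 16 of 24 other settings, among them each fit without an untreated, a 1-week or an 8-week card (limma adjusted p = 0.0518 to 0.152), the replicate number as a block (0.0541), and 7 of the 9 other centrings. At 1 week it was lost without untreated card 1 (log2 fold change 1.60, limma adjusted p = 0.0560) and without 1-week card 1 (1.29, 0.0605), and at 4 weeks without untreated card 1 (1.48, 0.0515) and untreated card 2 (1.40, 0.0621).

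**Figure D3:**
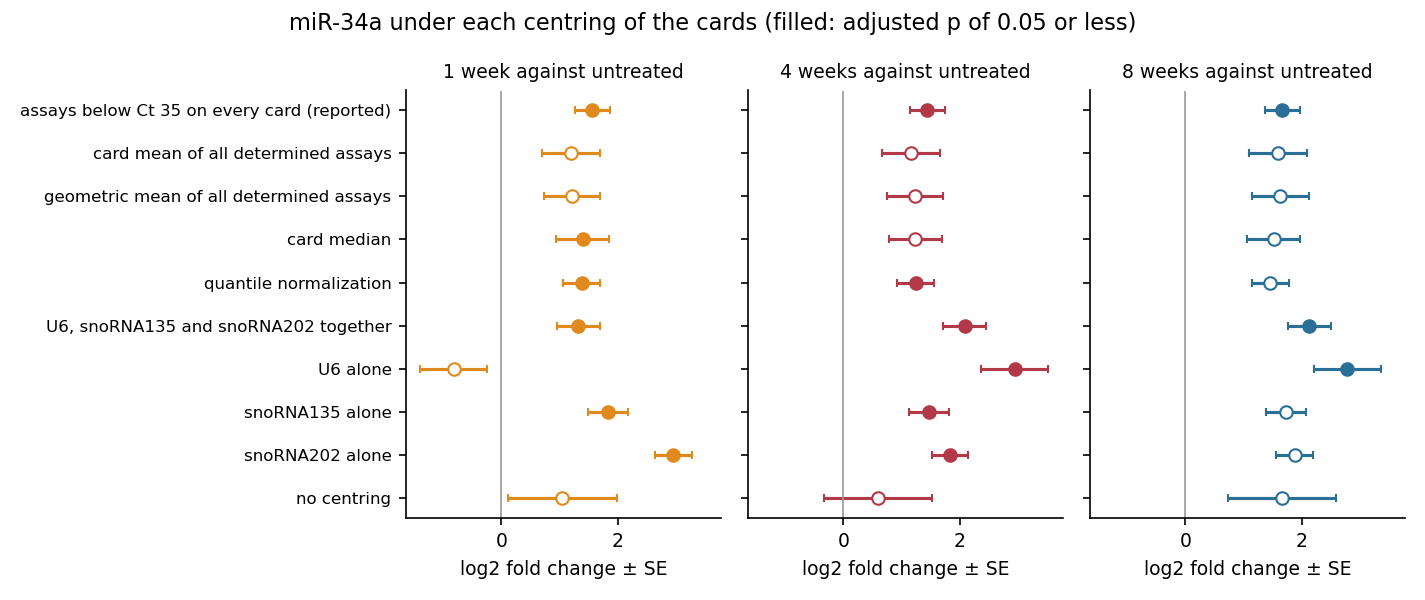
Log2 fold change of miR-34a against untreated (horizontal axis, with its standard error) at 1, 4 and 8 weeks under the reported centring and 9 others; filled points have an adjusted p of 0.05 or less. All points lie above 0 except U6 alone at 1 week (-0.815), and at 8 weeks only the reported centring and the 2 that use U6 are filled.

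Between the times, no difference of miR-34a passed the test with this centring. The log2 difference was -0.12 for 4 weeks against 1 week (95% confidence interval -0.82 to 0.58), 0.10 for 8 weeks against 1 week (-0.60 to 0.80) and 0.22 for 8 weeks against 4 weeks (-0.48 to 0.92), with limma adjusted p = 0.746, 0.790 and 0.709. The intervals leave room for differences of up to 0.92 on the log2 scale. In the same comparisons 47%, 24.1% and 1.2% of the 166 assays were called. The order of the group means, 8 weeks, 1 week, 4 weeks and untreated, therefore separates only untreated from the rest, and 2 scalings moved it in opposite ways. With U6 alone, the 4-week and 8-week differences from 1 week were 3.76 and 3.59, and with snoRNA202 alone they were -1.12 and -1.08 (limma adjusted p = 0.0256 and 0.0326).

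miR-34b-3p was also higher in treated liver, with a much wider spread. Its raw Ct was 33.02 and 30.91 without treatment, 29.83 and 29.65 after 1 week, 29.71 and 30.14 after 4 weeks, and 30.04 and 30.82 after 8 weeks. The centred values were -4.67 and -2.92 in untreated liver, -1.06 and -1.05 after 1 week, -1.46 and -0.37 after 4 weeks, and -2.56 and -1.94 after 8 weeks. All 6 treated cards lay above both untreated cards, but the lower 8-week card was 0.36 above the higher untreated card, while the untreated cards were 1.76 apart.

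Relative to the untreated mean, the level of miR-34b-3p on a linear scale was 5.60 ± 0.0324 (SD, n = 2 cards) after 1 week, 6.65 ± 3.39 after 4 weeks and 2.51 ± 0.745 after 8 weeks, with 1 ± 0.768 in untreated liver. The log2 fold change was 2.74 at 1 week (standard error 0.61, limma adjusted p = 0.0148), 2.89 at 4 weeks (limma adjusted p = 0.0113) and 1.55 at 8 weeks (95% confidence interval 0.12 to 2.98, limma adjusted p = 0.172). It thus passed at 1 and 4 weeks and did not at 8 weeks, where it ranked 9 of 166 from the highest fold change, next to miR-34a at 8. The difference between 8 and 4 weeks was -1.34 (-2.77 to 0.09, limma adjusted p = 0.267) and that between 8 weeks and 1 week -1.19 (-2.62 to 0.24, limma adjusted p = 0.175), so a smaller response at 8 weeks was not shown. The size depended on which untreated card was kept. Without untreated card 2, the log2 fold changes were 3.62, 3.76 and 2.43 at 1, 4 and 8 weeks. Untreated card 1 had the Ct of 33.02. Without it, the log2 fold changes were 1.86, 2.01 and 0.67, with limma adjusted p = 0.0758, 0.0521 and 0.498. The call at 1 week was also lost without 1-week card 1 (2.74, limma adjusted p = 0.0605) or card 2 (2.73, 0.0754), and that at 4 weeks without 4-week card 2 (2.34, 0.0621).

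For any CCl4 against untreated, the mean difference in centred value was 1.55 for miR-34a and 2.39 for miR-34b-3p. An exact two-sided permutation test over the 28 splits of 8 cards into 6 and 2 gave p = 0.0357 for each, the smallest p the design allows, and 0.0357 after adjustment over the 2 tests. Such a separation is not rare on these cards, since 13.3% of the 166 assays had all 6 treated cards above both untreated cards. Both values for any CCl4 stayed above 0 with each other centring. With U6 alone neither passed (p = 0.429 and 0.143 by the exact permutation test), and with no centring miR-34a did not pass (1.10, exact permutation p = 0.179). Over the 8 cards, the centred values of the 2 assays had a Pearson correlation of 0.75, given as a description. The points share the card mean subtracted from both, and miR-34b-3p was 12th of 165 assays in likeness to miR-34a.

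The gap between both assays on the same card does not depend on the scaling. The Ct of miR-34b-3p was higher than that of miR-34a by 3.05 and 1.21 cycles on the untreated cards, 1.23 and 0.68 after 1 week, 1.19 and 0.18 after 4 weeks, and 2.41 and 2.08 after 8 weeks. The treated cards thus overlapped the range of the untreated cards, and the difference of -0.835 between the mean gap in treated liver and that of 2.13 in untreated liver did not pass the exact two-sided permutation test (p = 0.321). An unequal response of the 2 assays to any CCl4 was therefore not detectable. Both 8-week gaps lay above every gap after 1 and 4 weeks, and this difference between times was not tested.

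miR-449a, which has the seed of miR-34a, was determined almost solely at 1 week. Its Ct was 31.89 and 33.34 on the 1-week cards and 36.04 on 8-week card 1, and there was no Ct on either untreated card, either 4-week card or 8-week card 2. The centred values were -3.12 and -4.74 at 1 week and -8.56 on the 8-week card, so the 1-week cards were 1.62 apart and the 8-week card 3.81 below the lower of them. The untreated cards gave Ct values of up to 37.1 and 37.8 for other assays, and 4-week card 1 of up to 37.2 with 235 assays determined, more than on any other card, while 4-week card 2 had the fewest determined (193) and the highest mean Ct (29.8). Among the 51 assays with a Ct between 31 and 34 on both 1-week cards, 3 (5.88%) had no Ct on either untreated card, miR-449a among them. Among the 111 assays determined on 1 to 7 cards, 6 (5.41%) were determined on both 1-week cards and on no untreated card, and 4 (3.6%) also had no Ct on either 4-week card, again with miR-449a among them. All 3 counts also hold the rat assay rno-miR-347, whose Ct was exactly 0.1 cycles above that of miR-449a on each 1-week card and which had no Ct elsewhere; whether both 1-week values of miR-449a are independent of it was not tested, and they should be read with that doubt. With undetermined values set to Ct 40, the fitted log2 difference of miR-449a was 7.90 for 1 week against untreated and -7.05 for 4 weeks against 1 week. These are fixed by the 40 chosen and by which cards had a Ct, so they are given as a description, with no test.

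miR-34c and miR-449b were almost never determined. miR-34c, the neighbour of miR-34b, had a Ct of 35.98 on 8-week card 2 and none on the other 7 cards, so no card gave a Ct below 35. A determined level for miR-34b-3p beside none for miR-34c on 7 cards compares 2 assays, whose Ct values are not on a common scale. miR-449b had no Ct on any card, as did 102 of the 381 assays (26.8%). An undetermined Ct sets no level, and an absence of these miRNAs is not shown.

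The other p53-linked miRNAs of the card were called at rates that lay mostly near those of all assays. The list held 15 assays: direct transcriptional targets of p53 (the miR-34 assays, miR-192, miR-194, miR-215, miR-145, miR-107, miR-200c and miR-141), miRNAs whose processing p53 aids (miR-16, miR-143 and miR-145) and miRNAs that repress p53 (miR-125b-5p, miR-25 and miR-30d). Of these, 13 were tested, all but miR-34c and miR-141. Leaving out the miR-34 assays, 0 of 11 were called higher and 2 lower at 1 week, 0 higher and 4 lower at 4 weeks, and 0 in either direction at 8 weeks (limma). Over all 166 assays, 18.1%, 13.3% and 2.41% were called higher at the 3 times, and 14.5%, 16.9% and 0.602% lower, so for 11 assays the counts of 0 higher and the 1-week and 8-week counts of lower calls are near the background. The 4 of 11 called lower at 4 weeks lay above the 16.9% of all assays, and this difference was not tested. The median log2 fold change of the 11 was -0.38, -0.34 and -0.38, against -0.09, 0.03 and -0.04 over all assays tested.

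The other assays of the list that were called against untreated were lower. miR-192, made with miR-194 from shared precursors and abundant in hepatocytes, had centred values of 6.94 and 7.16 in untreated liver, 6.49 and 6.46 after 1 week, 4.76 and 3.81 after 4 weeks, and 6.20 and 5.54 after 8 weeks. Its log2 fold change was -0.58, -2.76 and -1.18 (limma adjusted p = 0.281, 0.00455 and 0.141). miR-194 had log2 fold changes of -0.79, -2.49 and -1.26 (limma adjusted p = 0.117, 0.00455 and 0.0848). miR-215, which shares the seed of miR-192, was at -3.91 and -4.03 in untreated liver, -3.98 and -4.43 after 1 week, -2.36 and -3.35 after 4 weeks, and -2.77 and -3.21 after 8 weeks, with log2 fold changes of -0.24, 1.12 and 0.98 that were not called (limma adjusted p = 0.653, 0.0676 and 0.172). Between 1 and 4 weeks, 2 of the 11 assays were called higher at the later time, miR-215 by 1.36 and miR-125b-5p by 1.95 (limma adjusted p = 0.0270 and 0.0218), and 3 were called lower, miR-192, miR-194 and miR-16; at 8 weeks against 1 week 1 was called lower, miR-16, and 0 of 11 were called between 4 and 8 weeks. Over all assays, 47%, 24.1% and 1.2% were called in these comparisons, so these counts too are near the background. The seed partners miR-192 and miR-215 thus lay on opposite sides of untreated at 4 and 8 weeks, a difference that was not tested.

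miR-107, encoded in an intron of the pantothenate kinase gene Pank1, fell by 1.52 at 1 week and by 2.61 at 4 weeks on the log2 scale (limma adjusted p = 0.0338 and 0.00579), with -1.23 at 8 weeks (0.160). miR-16, whose maturation p53 aids, fell by 1.66 at 4 weeks (limma adjusted p = 0.0426), with 0.83 at 1 week (0.230) and -1.12 at 8 weeks (0.201). miR-30d, which represses p53, fell by 1.07 at 1 week (limma adjusted p = 0.0258), with -0.63 and -0.57 at 4 and 8 weeks (0.127 and 0.236). Outside the miR-34 assays, 9, 7 and 11 of the 11 assays of the list were not called against untreated at 1, 4 and 8 weeks. Of 24 other settings, 2 ended the 4-week call of miR-192, 2 that of miR-194 and 2 that of miR-107, while 14 ended that of miR-16, and at 1 week 8 ended the call of miR-107 and 9 that of miR-30d. Among these, miR-16 lost its call without either untreated card (-2.15 and -1.17), either 1-week card (-1.66) or 4-week card 2 (-1.30), with limma adjusted p = 0.0515 to 0.227. At 1 week miR-107 lost it without either untreated card (-1.43 and -1.61) or 1-week card 2 (-0.85), with limma adjusted p = 0.0902 to 0.177, and miR-30d without either untreated card (-1.11 and -1.03) or either 1-week card (-1.20 and -0.94), with limma adjusted p = 0.0757 to 0.149. At 1 week the direction of miR-192, miR-194 and miR-30d turned with scaling to snoRNA202 alone, which moved the median of all tested assays to 1.30.

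**Figure D4:**
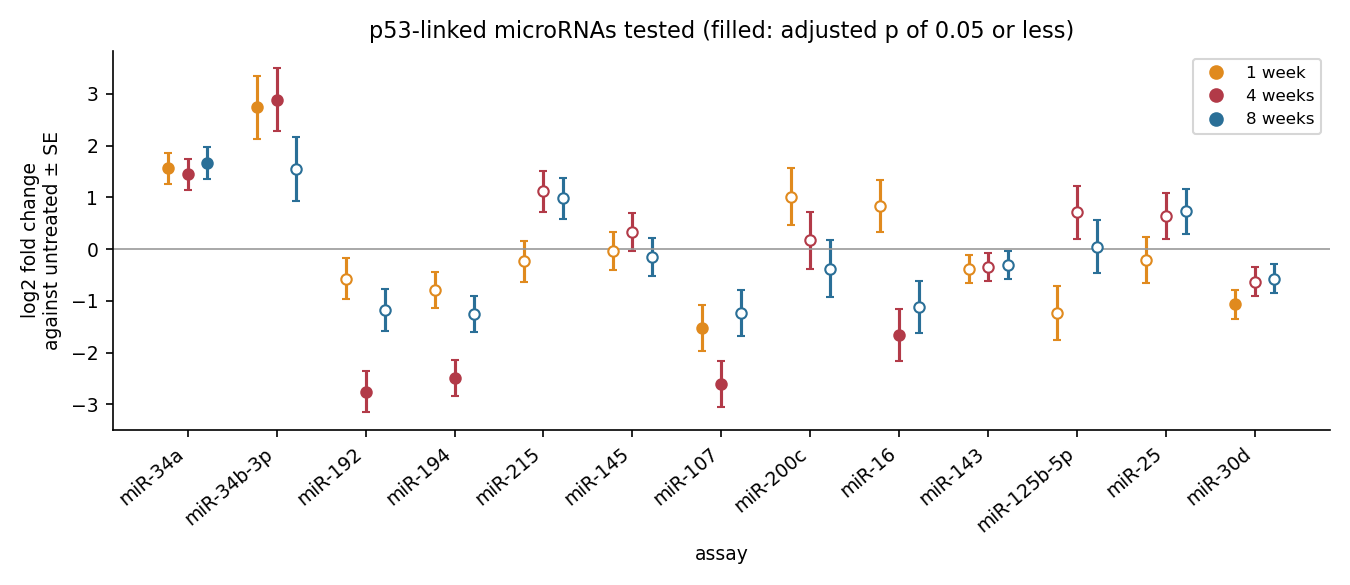
Log2 fold change against untreated (vertical axis, with its standard error) of the 13 p53-linked assays tested, at 1, 4 and 8 weeks; filled points have an adjusted p of 0.05 or less. miR-34a and miR-34b-3p lie above 0 at all times and hold all the filled points above 0; the other filled points, of miR-192, miR-194, miR-107, miR-16 and miR-30d, lie below 0.

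The assays with a pattern most like that of miR-34a were taken by the Pearson correlation of centred values over the 8 cards among the 165 other assays tested. They were miR-184 (0.91), miR-532-5p (0.81), miR-409-3p (0.81), miR-132 (0.80) and miR-142-5p (0.79), and these correlations are a description of 8 points that share the card means and the 2 untreated cards. miR-184 was at -6.33 and -7.12 in untreated liver, -3.73 and -4.08 after 1 week, -4.48 and -5.18 after 4 weeks, and -4.47 and -4.61 after 8 weeks, and its log2 fold changes were 2.82, 1.90 and 2.19. miR-409-3p had log2 fold changes of 6.15, 3.11 and 3.64, and both it and miR-184 were called at all 3 times (limma). Since the 5 assays were chosen by likeness to miR-34a on the same cards, their calls restate that choice in part and are a description too. miR-132 was called at 1 and 4 weeks (1.39 and 2.10) and had 1.20 at 8 weeks (limma adjusted p = 0.0787). miR-142-5p was likewise called at 1 and 4 weeks (1.63 and 1.60), with 0.97 at 8 weeks (limma adjusted p = 0.114). miR-532-5p was the flattest of the 5, at 0.50, 0.63 and 0.69, and was not called at any time.

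**Figure D5:**
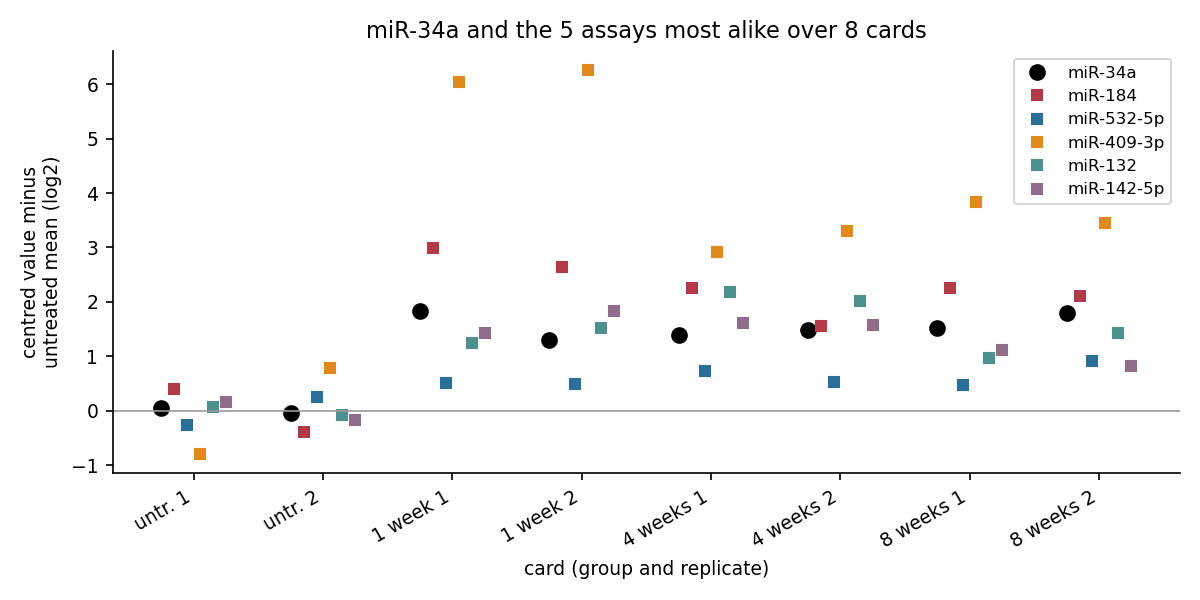
Centred value minus the untreated mean (vertical axis, log2 scale) of miR-34a (circles) and the 5 assays most alike (squares) on each of the 8 cards (horizontal axis). All 6 treated cards lie above both untreated cards for each of the 6 assays, as for 13.3% of the 166 assays tested. The 5 were chosen by likeness to miR-34a on these cards, so their separation restates that choice in part. Changes run from 0.50 to 0.69 for miR-532-5p, which was not called at any time, and from 3.11 to 6.15 for miR-409-3p.

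The RNA came from whole liver, and markers of other cell types moved over the same cards. Of 6 leukocyte assays (miR-223, miR-142-3p, miR-142-5p, miR-150, miR-155 and miR-146a), 5 were called higher at 1 week, 4 at 4 weeks and 0 at 8 weeks, and their summed level relative to untreated was 3.35 to 3.57 after 1 week, 2.78 to 3.77 after 4 weeks and 1.39 to 1.98 after 8 weeks, against 0.745 to 1.26 in untreated liver. All counts in this paragraph stand beside 18.1%, 13.3% and 2.41% of all assays called higher and 14.5%, 16.9% and 0.602% called lower at the 3 times, and no list was tested against these shares. The level of miR-34a was 3.00, 2.71 and 3.18 and that of miR-34b-3p 5.60, 6.65 and 2.51 at the same times, and neither was tested against this sum. Each sum adds assays whose Ct values are not on a common scale, so those with the lowest Ct weigh most. In the leukocyte sum these were miR-146a and miR-223, with a mean Ct of 23.4 and 23.8. Of the 5 assays most like miR-34a, 1, miR-142-5p, belongs to the leukocyte list. Of 4 hepatocyte assays, 1, 3 and 1 were called lower, with a summed level of 0.574 to 0.594, 0.340 to 0.382 and 0.589 to 0.696 at the 3 times. Among them, miR-192 and miR-194 are also in the p53-linked list. The centred values of miR-122 were 6.40 and 5.60 in untreated liver, 5.45 and 6.08 after 4 weeks, and 5.51 and 6.66 after 8 weeks. At these times miR-122 thus overlapped the untreated cards, while both 1-week cards lay below them. Of the 4 mesenchymal and stellate assays tested, 2 were called higher at 4 weeks and 0 at 1 and 8 weeks, with a summed level of 0.989 to 1.06, 1.24 to 1.68 and 0.936 to 1.17. Of the 4 biliary epithelial assays tested, 0 were called, with 1.08 to 1.24, 0.606 to 0.872 and 0.557 to 0.687, and of 2 endothelial assays both were called lower at 4 weeks, with 1.46 to 1.53, 0.212 to 0.369 and 0.392 to 0.699. No defining marker of the hepatocyte, leukocyte or endothelial list was undetermined on any card. In the mesenchymal and stellate list, miR-199a-5p had a Ct on 1 card alone, untreated card 2. In the biliary epithelial list, miR-141 had a Ct on 7 of 8 cards, and neither assay was tested. The part of the shifts in these lists in the values of miR-34a, miR-34b-3p and miR-449a was not tested.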

How the data were processed

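Total liver RNA (mirVana) was reverse transcribed with Megaplex primers without pre-amplification and run on rodent TaqMan low-density array cards (pool A). The authors deposited raw Ct values, one column a card, with no normalization and with undetermined wells empty; the software that set the threshold is not given in the sources used here. A deposited table of the authors' own fold changes was not used.

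Cards were grouped by their labels. To centre a card, the Ct of each assay was subtracted from the mean of the 149 assays that stayed below Ct 35 throughout. A linear model over the 8 cards was fitted in R 4.3.3 by limma 3.58.1 (lmFit, eBayes; 3.47 prior degrees of freedom) to the 166 assays that had a Ct on each card and averaged below Ct 35, with Benjamini-Hochberg adjustment within each comparison at 0.05. Any CCl4 was compared with untreated by an exact permutation test. Every assay of the rule was named, as were the p53-linked assays called against untreated, miR-192, miR-194 and miR-215, and the 5 assays most alike to miR-34a. The members, lists and tests were chosen with earlier results of these data known. Alternatives were other centrings, other Ct limits, undetermined values at Ct 40, the replicate number as a block, a trend in eBayes, a fit to the groups compared, an adjusted p of 0.10 and each card left out. The fit was also run on simulated data, whose outcome is not reported here and on which no result above rests. Ct values give no counts, so the number of cards sets the precision. Sequences came from RefSeq (GRCm38.p6).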

Additional observations from a re-analysis of the deposited data

How the results depend on the processing

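Over the 9 other centrings, 35 of 36 values of miR-34a against untreated were above 0 and 36 of 36 of miR-34b-3p. Leaving out a card can also move the value, while the remaining settings change the test alone. The calls were less stable: of 24 alternatives with a limma test, miR-34a was called higher in 18 at 1 week, 17 at 4 weeks and 8 at 8 weeks, and miR-34b-3p in 18, 20 and 0. The cause of a lost call was not tested, unless the setting itself gives it.

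For miR-34a the log2 fold changes that were no longer called (limma adjusted p in parentheses) were 1.20 (0.0789), 1.16 (0.105) and 1.59 (0.129) at 1, 4 and 8 weeks with a mean over whatever was determined on the card, 1.22 (0.0678), 1.23 (0.0752) and 1.63 (0.0936) with the geometric mean, and 1.05 (0.474), 0.595 (0.760) and 1.65 (0.956) with no centring. They were 1.235 (0.0686) at 4 weeks and 1.5125 (0.122) at 8 weeks with the card median, 1.44 (0.0688) and 1.66 (0.118) with undetermined values at Ct 40, and at 8 weeks 1.45 (0.0824) with quantile normalization, 1.72 (0.0710) with snoRNA135, 1.875 (0.0545) with snoRNA202 and 1.66 in a fit to the groups compared (0.0828). Between times, the 4-week against 1-week difference turned to 0.012 with the geometric mean, 0.76 with 3 control RNAs and 3.76 with U6 alone (0.000553), and passed at -1.12 with snoRNA202 (0.0256). The 8-week against 1-week difference turned to -0.11 with snoRNA135 and -1.08 with snoRNA202 (0.0326) and passed at 3.59 with U6, and 8 weeks against 4 weeks turned to -0.17 with U6. With U6 alone miR-34a was at -0.815 at 1 week. Any CCl4 gave 1.635 with U6 (exact permutation p = 0.429) and 1.10 with no centring (0.179).

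For miR-34b-3p, U6 alone gave 0.36 at 1 week (0.644), 4.03 for 4 weeks against 1 week, 2.30 for 8 weeks against 1 week (0.0136) and 2.47 for any CCl4 (exact permutation p = 0.143). No centring gave 2.225 at 1 week (0.151) and 2.04 at 4 weeks (0.130), and undetermined values at Ct 40 gave 2.74 (0.0764) and 2.89 (0.0765). Its 4-week against 1-week difference turned to -0.15 with quantile normalization, -0.09 with snoRNA135, -0.85 with snoRNA202 and -0.185 with no centring, and its 8-week against 1-week difference passed at -2.37 with snoRNA202 (0.0249). Counting only Ct values below 35 left miR-449a on 2 cards and miR-34c on 0.

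With each card left out in turn, miR-34a ranged from 1.29 to 1.83 after 1 week, 1.40 to 1.48 after 4 weeks, 1.52 to 1.81 after 8 weeks, and 1.50 to 1.61 for any CCl4, and between times from -0.39 to 0.15 (4 against 1 week), -0.17 to 0.37 (8 against 1) and 0.08 to 0.36 (8 against 4). The turns were at 0.15 without 1-week card 1, and at -0.17 without 1-week card 2 and -0.042 without 8-week card 2. miR-34b-3p ranged from 1.86 to 3.62, 2.01 to 3.76, 0.67 to 2.43 and 1.51 to 3.27, and between times from -0.40 to 0.69, -1.50 to -0.88 and -1.88 to -0.79. Without an untreated card the exact permutation test cannot go below p = 0.143.

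Same-numbered cards share only a number: the correlation of replicate differences ranged from -0.50 to 0.43. With the replicate block, 50, 49, 4, 75, 38 and 0 assays were called in the 6 comparisons, and miR-34a lost its call at 8 weeks (1.66, limma adjusted p = 0.0541). A block that crosses the untreated numbers, chosen after seeing the data, called 74, 65 and 17 against untreated.

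The number of assays called was 54, 50 and 5 at 1, 4 and 8 weeks and 78, 40 and 2 between times (4 against 1, 8 against 1, 8 against 4 weeks). It was 1 at 8 weeks and 1 for 8 against 4 weeks with either mean over what was determined on the card, 2 and 1 with the card median, and 12 and 1 with 3 control RNAs. Quantile normalization gave 20 for 8 against 1 week and 9 for 8 against 4. U6 alone gave 127 at 1 week, 8 at 8 weeks, 152, 154 and 0. snoRNA135 gave 32 at 4 weeks, 1 at 8 weeks, 16 for 8 against 1 week and 0 for 8 against 4, and snoRNA202 gave 0 at 8 weeks, 82 and 1. No centring gave 5, 10, 1, 29, 8 and 0, and Ct 40 gave 24, 3, 0, 32, 8 and 0. At 8 weeks a mean Ct below 32 gave 3, a trend 11, the groups compared 0, and an adjusted p of 0.10 gave 15, with 6 for 8 against 4 weeks, where the groups compared gave 0. Without 1 card the counts ranged over 15 to 59, 22 to 51, 0 to 6, 30 to 75, 4 to 49 and 0 to 1. Where limma called 0, the counts at an unadjusted p under 0.05 were 30 (snoRNA202), 33 (Ct 40) 32 (groups compared), 45 (without 8-week card 1) and 26 (without 8-week card 2) at 8 weeks, and 9 (U6), 22 (snoRNA135), 18 (no centring), 28 (Ct 40), 25 (replicate block), 18 (groups compared), 27 (without either untreated card), 22 (without either 1-week card) and 17 (without 4-week card 2) for 8 against 4 weeks.

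The split of calls into higher and lower was 30 and 24, 22 and 28, and 4 and 1 at the 3 times, and 36 and 42 and 17 and 23 for 4 and 8 weeks against 1 week. With all determined assays it was 18 and 33 at 1 week, 12 and 27 after 4 weeks, and 21 and 12 for 8 against 1 week; with the geometric mean 18 and 33 at 1 week and 21 and 12 for 8 against 1 week; and with the median 14 and 30 at 4 weeks. With 3 control RNAs it was 45 and 11 at 4 weeks, 72 and 20 for 4 against 1 week, and 46 and 10 for 8 against 1 week. With U6 it was 2 and 125 at 1 week and 67 and 2 after 4 weeks; with snoRNA135 30 and 9 at 1 week, 19 and 38 for 4 against 1 week, and 4 and 12 for 8 against 1 week; with snoRNA202 80 and 0 at 1 week, 26 and 11 after 4 weeks, 9 and 71, and 3 and 79; and with no centring 4 and 1 at 1 week, 1 and 9 after 4 weeks, 7 and 22, and 6 and 2. The median of all tested assays moved to -2.47, 1.53 and 1.07 with U6 alone, and to 1.30 at 1 week with snoRNA202.

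Among 852 values of the other assays named, 99 lost their call, 19 gained one and 17 did not keep their sign. U6 with quantile normalization was at exactly 0 at 1, 4 and 8 weeks and so has no direction. The others turned: miR-30d at 0.013 (3 controls) and 0.875 (U6) at 4 weeks, 0.54 (U6) at 8 weeks and 0.325 (snoRNA202) at 1 week, and at 1 week with U6 miR-16 (-1.545, limma adjusted p = 0.0186), miR-532-5p (-1.88, 0.0206), miR-142-5p (-0.75) and miR-132 (-0.99), with snoRNA135 miR-215 (0.03), with snoRNA202 miR-215 (1.155), miR-194 (0.60) and miR-192 (0.815), and with no centring miR-532-5p at -0.015 at 1 week and -0.215 at 4 weeks.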

Other observations

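The decimals of the deposited Ct values were uneven. Of 1729 determined values, 395 (22.8%) had decimals between 0.90 and 0.99, and the share ranged from 12.3% on 4-week card 1 to 47.7% on 4-week card 2. For miR-34a, 3 of 8 Ct values fell in this range (untreated card 1, 1-week card 2 and 4-week card 2), against 1 of 8 for miR-34b-3p (untreated card 2), the 1 value of miR-34c and 0 of 3 for miR-449a.

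The rat assay rno-miR-347 had a Ct of 31.99 and 33.44 on the 1-week cards and on no other card, and each value was 0.1 cycles above that of miR-449a on the same card. The other assays determined on both 1-week cards and on no untreated card were miR-135b, miR-431, miR-467c and rno-miR-381; these names were taken after their values were seen.

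Of 5 endogenous control RNAs, limma called 1 higher and 2 lower at 1 week. It called 2 lower at 4 weeks, and at 8 weeks 0 were called. Of all 166 assays, 18.1%, 13.3% and 2.41% were called higher at 1, 4 and 8 weeks. The shares called lower were 14.5%, 16.9% and 0.602%, and the control RNAs were not tested against these shares. U6 was at 2.38 at 1 week (limma adjusted p = 0.0080), -1.50 at 4 weeks (0.0417) and -1.11 at 8 weeks (0.172) on the log2 scale.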
